A study of Rattus norvegicus with 6 samples.

Results

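Heterotrimeric G protein subunits were followed in the substantia nigra pars compacta of rats that received the pesticide rotenone or its solvent. The set comprised 10 genes: the alpha subunit genes Gnai1, Gnai2, Gnai3, Gnao1, Gnas, Gnal and Gnaq, the beta subunit genes Gnb1 and Gnb2, and the gamma subunit gene Gng7. Members were all probes whose accession, without its version, is a RefSeq transcript of one of these rat genes. This gave 10 probes for 8 genes, of 33849 probes and 4013 named genes on the array. Gnal and Gnb1 had no probe by this rule and were not analysed here. Gnai1 and Gnao1 had 2 probes each, which target the same transcript record.

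The rotenone group was 3 male Sprague Dawley rats (rats 16, 13 and 9) whose osmotic minipumps, placed under the skin, released 0.5 mg/kg of rotenone each day for 28 days; rotenone blocks complex I of the mitochondrial respiratory chain. The solvent group was 3 rats of the same strain and sex (rats 11, 7 and 1) whose pumps held only the vehicle, a mixture of dimethylsulfoxide and polyethylene glycol with the surfactant Pluronic F-127. All were 5 months old, and all were anaesthetised with ketamine and xylazine for the implantation. The region was taken by laser capture and 1 CodeLink array, read in a single colour, was used for the amplified RNA of each rat, so the rat is the replicate. The comparison asks how weeks of low exposure bear on transcript levels in the region.

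A heterotrimeric G protein carries signals from receptors that span the cell membrane. In the resting state an alpha subunit holds GDP and is bound to a beta-gamma dimer; an activated receptor makes alpha exchange GDP for GTP, and alpha and beta-gamma then act on separate effectors. Alpha subunits of the Gs class, Gnas and Gnal, stimulate adenylyl cyclase, those of the Gi/o class inhibit it, and Gnaq activates phospholipase C. In dopamine neurons of the nigra, D2 autoreceptors and GABA-B receptors act through Gi/o proteins, whose beta-gamma dimers open inwardly rectifying potassium channels and slow firing.

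The tissue label was checked against marker genes. Th, Slc6a3 and Ddc, which mark dopamine neurons, were above background in all 6 rats, at normalized log2 intensities of 12.56 to 13.09, 12.45 to 12.57 and 12.63 to 13.39 with rotenone and of 12.48 to 12.88, 12.60 to 12.82 and 12.68 to 13.47 with solvent. Dimmer dopamine neuron markers were not above background throughout. Pitx3 was above it on 0 rotenone and 3 solvent arrays, Foxa2 on 2 and 2, and Nr4a2 on 2 and 3. Sncg, Slc18a2 and Cck were above background in all 6 rats. Gad1 of GABA neurons, Gfap of astrocytes, Mbp of oligodendrocytes and Aif1 of microglia were above background on the 6 arrays as well. In such tissue samples, fewer cells of a type and less RNA per cell cannot be told apart.

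The array of rotenone rat 16 stood apart from the other 5. Across probes it correlated with the rest at 0.931 on average, where the remaining arrays had 0.956 to 0.964, and 44.2% of its probes were above background, against 48.6% to 51.5%. The members' differences that turn on this rat are given with and without it. The array of solvent rat 7 carries another date in its file header than the other 5, and the values without it are the values within the other date. The scanner marked 33 of the 60 spots of the members as irregular in shape, among them every spot of Gnai2, Gnao1, Gnas and Gnb2. Over all probes the mark was given to 29.4% to 36.3% of spots per array. Marked spots were kept.

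For no member was the rotenone group called different from the solvent group, and the 95% interval of each tested difference included 0. Of the 10 probes, 9 were above background on at least 3 of the 6 arrays and were tested, and 0 of the 9 had an adjusted p below 0.05 (limma, with Benjamini-Hochberg adjustment over all probes tested), where 0% of all 16708 tested probes passed. At an unadjusted p below 0.05 there were 0 of 9, where 4.94% of all tested probes lay, 2.95% lower and 1.99% higher with rotenone. The groups overlapped for each of the 9, where 9.97% of all tested probes had groups apart, 4.89% lower and 5.08% higher with rotenone. With the array medians equalised in place of quantile normalization, 785 probes were lower and 152 higher at an unadjusted p below 0.05, where quantile normalization gave 493 and 332, and 61.9% of all means were lower with rotenone. The mean was lower with rotenone for 4 of the 9 (6 of the 9 with the array medians equalised), against 48.3% of all tested probes, and the median difference was 0.0085 on the log2 scale for the members and 0.0089 for all tested probes. The smallest p that exact permutation of 3 and 3 rats allows is 0.1.

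**Figure D1:**
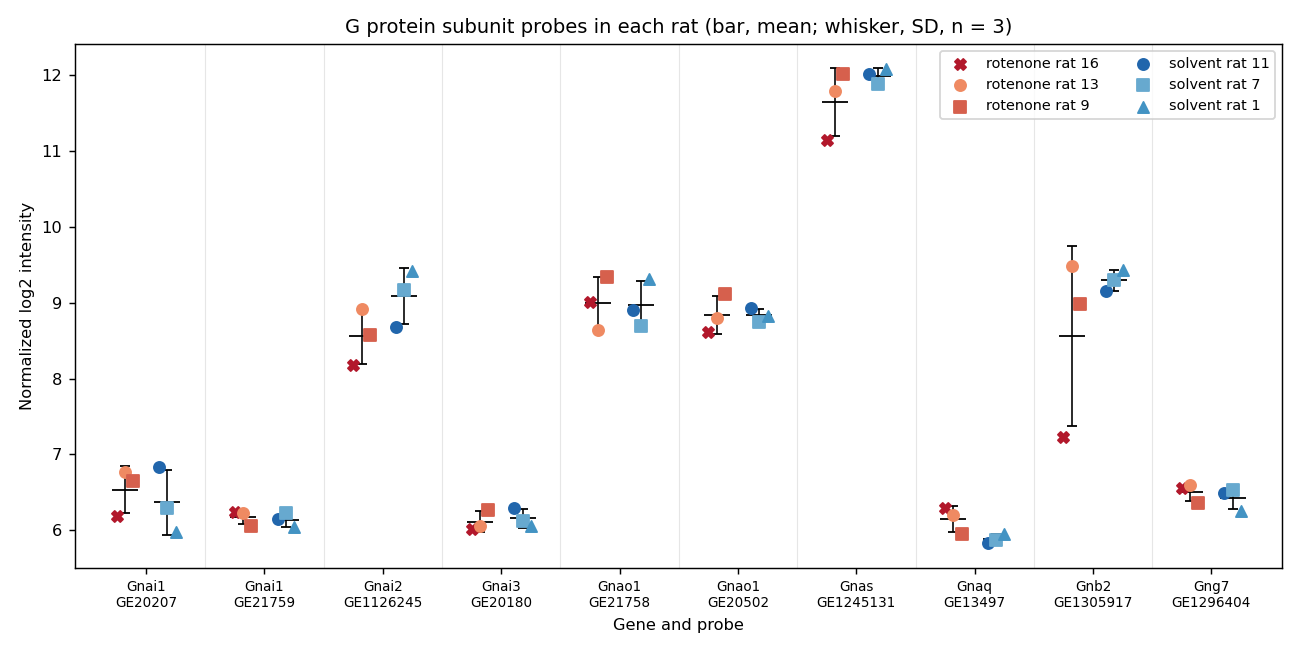
Normalized log2 intensity (vertical axis) of each of the 10 member probes (horizontal axis), with 1 point per rat, rotenone left of solvent, and the mean and SD of each group (n = 3) as bar and whisker. The cross of rotenone rat 16 lies at 7.22 for Gnb2, far below the other 5 points. For every probe, Gnb2 included, the points overlap between groups.

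The sequence around a transcript start is shown for Gnb2 and for Gnao1. Gnb2 had the values furthest apart among rats, and Gnao1 was a bright member with nearly equal means. Each window holds the 250 bases before and the 50 bases after a start, from RefSeq on GRCr8, where 8 of the 10 members had 10 such windows. The Gnb2 window lies wholly within the annotated gene, whose first base is 24795505, so its start is not the first base of the gene. Some other member windows, such as those of Gnb1 and Gng7, also lie within their genes. Capitals mark GGGCGG, the GC box, on either strand, and adjoining matches run together.
Gnb2, chr12:24795529-24795828, plus strand: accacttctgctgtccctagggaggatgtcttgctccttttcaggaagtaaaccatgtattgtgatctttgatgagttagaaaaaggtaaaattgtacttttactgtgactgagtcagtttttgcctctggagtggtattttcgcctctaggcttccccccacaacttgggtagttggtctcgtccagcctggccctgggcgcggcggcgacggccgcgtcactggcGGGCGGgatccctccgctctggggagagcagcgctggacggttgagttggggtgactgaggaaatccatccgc
Gnao1, chr19:11198388-11198687, minus strand: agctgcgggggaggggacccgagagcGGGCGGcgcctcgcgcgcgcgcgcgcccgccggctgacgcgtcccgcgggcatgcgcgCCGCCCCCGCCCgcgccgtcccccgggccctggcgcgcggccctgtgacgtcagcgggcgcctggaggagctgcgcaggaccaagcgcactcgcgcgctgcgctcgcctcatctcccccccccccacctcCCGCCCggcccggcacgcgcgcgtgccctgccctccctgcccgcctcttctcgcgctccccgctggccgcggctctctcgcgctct
The Gnb2 window was 55.0% G or C with 15 CpG pairs and 1 GC box, and the Gnao1 window was 82.3% G or C with 54 CpG pairs and 4 GC boxes. Over all 33469 windows of the table the medians were 51.7% and 7 CpG pairs, and 33.1% held a GC box, against 6 of the 10 member windows. The cyclic AMP response element TGACGTCA, which reads the same on both strands and was searched on its own, was in 1 member window, that of Gnao1, and in 1.83% of all windows. TATAAA, on either strand, was in 2 member windows, 1 of Gnas and that of Gnb1, and in 14.2% of all windows. A match describes these letters and no more.

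Gnb2 encodes a beta subunit, which with a gamma subunit forms the dimer that carries the signal beside alpha. Its probe, GE1305917, had normalized log2 intensities of 7.22, 9.49 and 8.98 in rotenone rats 16, 13 and 9, against 9.15, 9.30 and 9.43 in solvent rats 11, 7 and 1. Rotenone rat 16 alone was low, rotenone rat 13 was the highest of the 6, and the groups overlapped. The mean was 8.57 ± 1.19 with rotenone and 9.30 ± 0.14 with solvent (SD, n = 3 each), a difference of -0.73 ± 0.46 (SE) with a 95% interval from -1.75 to 0.29 and an adjusted p of 0.895 in limma. Without rotenone rat 16 the difference was -0.06, with an interval from -0.51 to 0.39.

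Before any normalization, the net intensity of the Gnb2 spot, which is the spot mean minus the local background, was 70.4, 656 and 438 in rotenone rats 16, 13 and 9, against 507, 623 and 684 in solvent rats 11, 7 and 1. The spot's median brightness gave the same picture, at 102 in rotenone rat 16 and 723 and 509 in rats 13 and 9, against 665, 854 and 848 in the solvent rats. The local background lay between 36 and 41 on the 6 arrays. The low value was thus present in the unprocessed spot by either summary, and it stayed above background. Both summaries and the normalized value come from the same spot, which was marked irregular on all 6 arrays, so they are not separate measurements. On the normalized scale rotenone rat 16 deviated by -2.05 log2 units from the mean of the other 5 rats, 4.13-fold below it. Gnb2 was picked out for its low value on this array, so its rank there is a description: 4 of the 16708 tested probes, Gnb2 among them, lay that far or farther below in this rat. The only other probe of these 4 with a gene name was that of Rpsa, a protein of the small ribosomal subunit, at -2.20. It was named after its value was seen.

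Gnas encodes the stimulatory alpha subunit that couples D1-class dopamine receptors and many hormone receptors to adenylyl cyclase. Its probe, GE1245131, was named through the transcript NM_019132. It had log2 intensities of 11.15, 11.79 and 12.02 in rotenone rats 16, 13 and 9, against 12.02, 11.88 and 12.08 in solvent rats 11, 7 and 1. On this scale rotenone rat 16 was again the lowest, and rotenone rat 9 lay level with solvent rat 11. The spot's median brightness gave another order. It was 2232, 2115 and 4446 in rotenone rats 16, 13 and 9, against 2334, 4527 and 3963 in solvent rats 11, 7 and 1. By that summary rotenone rat 13 was the lowest, and solvent rat 11 lay close to rotenone rat 16. The mean was 11.65 ± 0.45 with rotenone and 11.99 ± 0.10 with solvent (SD, n = 3 each), which differ by -0.34 (interval -0.84 to 0.16, adjusted p 0.895 in limma). Without rotenone rat 16 the difference was -0.09, with an interval from -0.47 to 0.29.

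Gnai2 encodes an inhibitory alpha subunit that is found in most tissues. Its probe, GE1126245, had log2 intensities of 8.18, 8.92 and 8.58 in rotenone rats 16, 13 and 9, against 8.69, 9.16 and 9.42 in solvent rats 11, 7 and 1. The lowest 2 values were from rotenone rats and the highest 2 from solvent rats, and rotenone rat 13 lay above solvent rat 11. The difference was -0.53 ± 0.24 (SE), with an interval from -1.07 to 0.0076, an unadjusted p of 0.0527 and an adjusted p of 0.895 in limma. This was the smallest unadjusted p among the 9 tested member probes. Without rotenone rat 16 the difference was -0.34, with an interval from -0.87 to 0.20.

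Gnao1 encodes the alpha subunit of Go, the most abundant G protein of neurons, through which D2 and GABA-B receptors act. Probe GE21758 had log2 intensities of 9.01, 8.64 and 9.34 in rotenone rats 16, 13 and 9, against 8.90, 8.69 and 9.32 in solvent rats 11, 7 and 1. Probe GE20502 had 8.62, 8.80 and 9.11 in the rotenone rats, against 8.93, 8.75 and 8.83 in the solvent rats, in the same order of rats. The differences were 0.02 (interval -0.48 to 0.53) and 0.0085 (interval -0.39 to 0.40), without rotenone rat 16 they were 0.02 and 0.12, and with the array medians equalised they were -0.066 and -0.10. Both probes had their highest value in rotenone rat 9, but they disagreed on rotenone rat 16, which lay at 0.03 and at -0.27 from the mean of the other 5 rats.

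Gnai1, a neuronal inhibitory alpha subunit, and Gnai3, its widely expressed relative, lay near background. The lowest value of any probe above background was between 5.97 and 6.03 on the 6 arrays. Gnai1 probe GE20207 had 6.18, 6.77 and 6.65 in rotenone rats 16, 13 and 9, against 6.83, 6.29 and 5.98 in solvent rats 11, 7 and 1, and was above background on 2 arrays of each group. The other Gnai1 probe, GE21759, stayed between 6.06 and 6.23 with rotenone and between 6.04 and 6.23 with solvent, and did not follow the first. Gnai3 stayed between 6.02 and 6.27 with rotenone and between 6.06 and 6.30 with solvent, and was above background on 1 rotenone and 2 solvent arrays. The differences were 0.17, 0.03 and -0.04, with intervals from -0.37 to 0.71, from -0.31 to 0.38 and from -0.41 to 0.32.

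Gnaq, the alpha subunit that activates phospholipase C, was above background in rotenone rats 16 and 13 and in no solvent rat, and so was not tested. It had log2 intensities of 6.29, 6.20 and 5.95 in rotenone rats 16, 13 and 9, against 5.82, 5.88 and 5.95 in solvent rats 11, 7 and 1. Rotenone rat 9 lay within the solvent values. Each solvent array was set to its dimmest signal above background, or to the Gnaq value where that was brighter. Against the mean of these, the rotenone mean was 1.11-fold higher, a value that leaves out the spread among rats. It is no strict lower bound, because rotenone rat 9 was itself not above background. A spot brighter than that signal can also be below background, as Gnai1 GE21759 was at 6.23 in rotenone rat 16.

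Gng7, a gamma subunit that in mice pairs with the olfactory alpha subunit Gnal in striatal neurons, was dim but above background on all 6 arrays. It had log2 intensities of 6.56, 6.59 and 6.36 in rotenone rats 16, 13 and 9, against 6.49, 6.53 and 6.25 in solvent rats 11, 7 and 1. The groups were intermixed, and the difference was 0.08 (interval -0.29 to 0.45). Probes differ in how well they bind their target, so these levels give no order among the subunits.

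**Figure D2:**
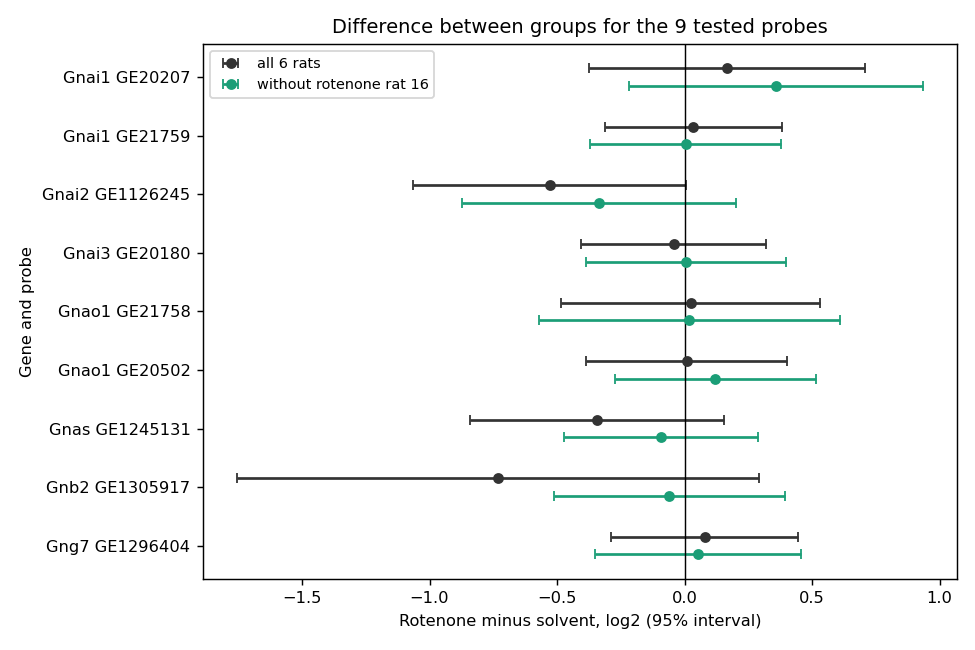
Difference in log2 intensity, rotenone minus solvent (horizontal axis), for each of the 9 tested probes (vertical axis), as the fitted value with its 95% interval, with all 6 rats (dark) and without rotenone rat 16 (green). Every interval includes 0, and that of Gnb2 narrows from -1.75 to 0.29 with all rats to -0.51 to 0.39 without rotenone rat 16.

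Not all members were low in rotenone rat 16. This rat was the lowest of the 6 for 5 of the 9 tested probes (Gnai2, Gnai3, Gnao1 GE20502, Gnas and Gnb2) and the highest for 1 (Gnai1 GE21759). It was the lowest for 26.2% and the highest for 29.4% of all tested probes. Of the 4797 tested probes with a mean log2 intensity of 8 or more, 5 of them member probes, it was the lowest for 30.8%. Gnai3 and Gnai1 GE21759 were not above background in this rat, so their ranks rest on values near background. The array had been singled out for Gnb2. Of the other 8 member probes it was the lowest for 4, with a median deviation of -0.20 from the other 5 rats, against 0.0067 for all tested probes. Gnas at -0.81 and Gnai2 at -0.77 had 4.33% and 4.96% of tested probes at or below them in this rat. By spot median, however, Gnas was lower in rotenone rat 13, at 2115, than in rotenone rat 16, at 2232. Gng7 at 0.11 and Gnao1 GE21758 at 0.03 were not low on the normalized scale. Before normalization, the dim Gng7 spot had a net intensity of 27.5 in this rat and 42.7 and 25.1 in rotenone rats 13 and 9. In solvent rats 11, 7 and 1 it had 35.5, 40.7 and 23.7.

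**Figure D3:**
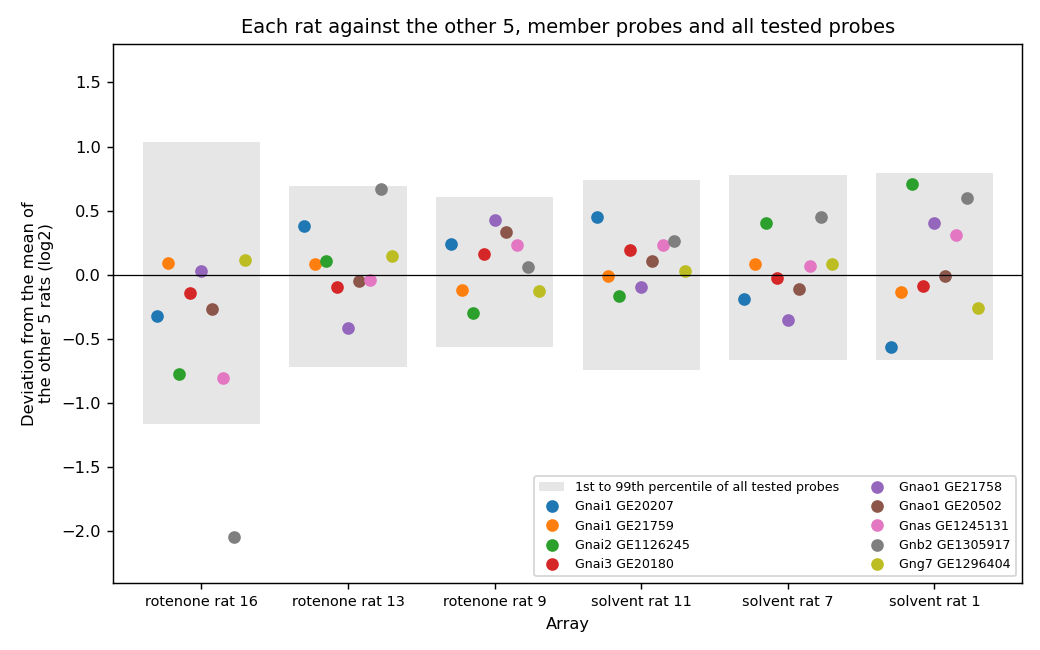
Deviation of each rat from the mean of the other 5 in log2 intensity (vertical axis) for the 9 tested member probes, 1 colour per probe, with rotenone rats left of solvent rats. The grey box spans the 1st to the 99th percentile of all 16708 tested probes, and Gnb2 in rotenone rat 16, at -2.05, lies below its lower edge of -1.16.

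Marker lists differed in how they stood in rotenone rat 16. General neuron markers, 8 of 11 on the array and 7 tested, had a median deviation of -0.73 in this rat and between -0.08 and 0.46 in the others. All 7 had lower means with rotenone, where 48.3% of all tested probes did, and 5 of the 7 did without rotenone rat 16. At an unadjusted p below 0.05, 3 of the 7 were lower (2.95% of all tested probes), none of them without rotenone rat 16, and 2 had groups apart (4.89%). Their summed scaled intensity was 282 to 414 with rotenone and 400 to 489 with solvent, and the defining marker Snap25 was below background on all 6 arrays. Astrocyte markers, 7 of 7 on the array and 5 tested, had a median deviation of -0.53 in rotenone rat 16 and between -0.05 and 0.34 in the others. Their summed intensity was 374 to 420 with rotenone and 333 to 348 with solvent, with Aqp4 and Slc1a2 below background throughout. Dopamine neuron markers, 9 of 12 on the array and all 9 tested, had a median deviation of -0.21 in rotenone rat 16, -0.19 in rotenone rat 13 and between 0.11 and 0.23 in the others. Lower means with rotenone were found for 7 of the 9, against 48.3% of all tested probes. Without rotenone rat 16 the count was 8 of the 9, against 49.5%. At an unadjusted p below 0.05 in limma, 2 were lower (2.95% of all tested probes), and 1 was without rotenone rat 16. The groups lay apart for 2, both lower (4.89%), and none had an adjusted p below 0.05. Their summed intensity was 3103 in this rat and 1671 to 2061 in rotenone rats 13 and 9, against 1818 to 2157 with solvent. Sums of this kind follow the brightest genes and depend on the scaling, which puts the median of each array near 1. Before scaling, the median net intensity was 11.7 in rotenone rat 16 and 13.9 to 16.6 in the others. The median deviation in rotenone rat 16 was -0.42 for endothelium and pericyte markers, -0.33 for GABA neuron markers and -0.24 for oligodendrocyte markers, and it was -0.01 for microglia markers and 0.19 for striatal projection neuron markers. The part of these lists in the low Gnb2, Gnas and Gnai2 values was not tested.

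The genes whose pattern over the 6 rats was most like that of Gnb2 were Pcsk1n, an inhibitor of a prohormone convertase, Gabarap of the autophagosome, the ribosomal protein genes Rpl10a and Rpl18, and the secreted protease gene Htra1. The measure was the root mean square difference of log2 values, each gene centred on its own mean of the 6 rats, over 2459 named probes. It was 0.22 for Pcsk1n and 0.28 for Htra1, with the other 3 between them, against a median of 0.77. All 5 had their lowest value in rotenone rat 16, which fixes most of this likeness. Pcsk1n had 7.96, 9.90 and 9.35 in rotenone rats 16, 13 and 9, against 9.69, 10.23 and 9.72 in solvent rats 11, 7 and 1. Gabarap had 7.70, 9.78 and 9.34 in the rotenone rats, against 9.93, 9.79 and 9.35 in the solvent rats. Among the members, the nearest to Gnb2 on this measure was Gnai2 at 0.51, followed by Gnas at 0.52, and the farthest was Gnao1 GE21758 at 0.86.

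**Figure D4:**
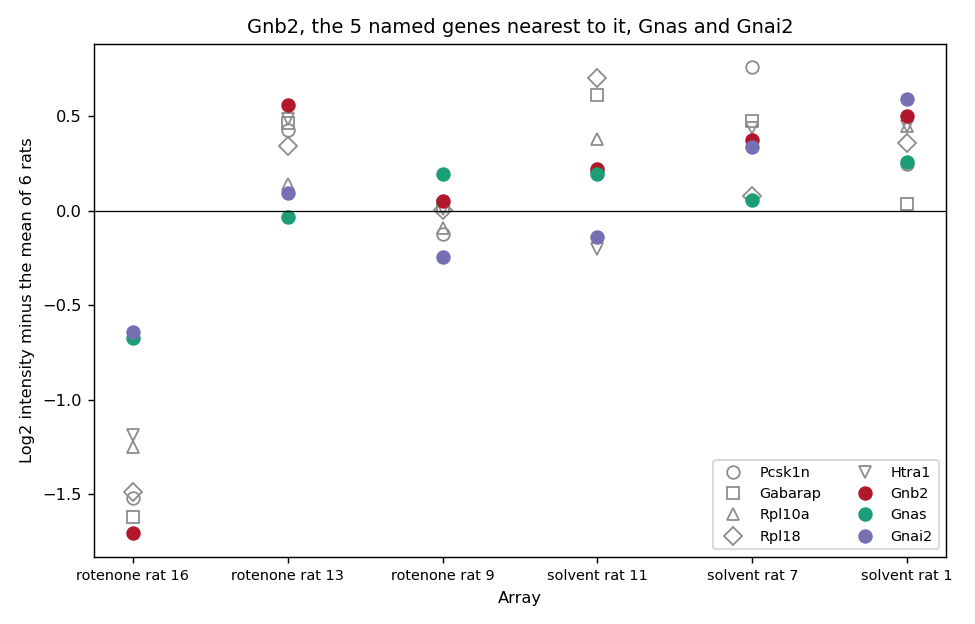
Log2 intensity minus the mean of the 6 rats (vertical axis) in each rat (horizontal axis), rotenone left of solvent, for Gnb2, Gnas and Gnai2 in colour and for the 5 named genes nearest to Gnb2 as open grey symbols. The grey symbols lie below 0 in rotenone rat 16 together with Gnb2, and Gnas and Gnai2 lie between them and 0.

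Other parts of the same signalling system were set beside the members: 8 lists of 143 genes, of which 83 were on the array by name and 48 were tested with 1 probe per gene. None of the 48 passed the adjusted test in limma, and 0 of 48 had an unadjusted p below 0.05, where 4.94% of all tested probes lay. Lower means with rotenone were seen for 19 of the 48, against 48.3% of all tested probes, and higher means for 29, with a median difference of 0.08. Gabbr1 was the 1 gene of the 48 whose groups did not overlap, against 9.97% of all tested probes. The differences below are from all 6 rats unless another set is named, and many of them moved by over 1.5 times when 1 rat was left out.

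Of the other G protein subunits, 9 of 23 were on the array and 6 were tested, and none passed. Gng11, a gamma subunit, had 8.95 to 9.30 with rotenone and 8.82 to 9.19 with solvent, and Gnaz, a Gi-class alpha subunit that pertussis toxin does not modify, had 8.12 to 8.70 and 8.27 to 9.10. The gamma subunit gene Gng8 differed by -0.30 (interval -0.80 to 0.19) and Gng5 by -0.49 (interval -1.19 to 0.20). With 1 rat left out, Gng8 ranged from -0.54 without solvent rat 7, at an unadjusted p of 0.0288, to -0.14 without solvent rat 11, and Gng5 from -0.82 to -0.39. Gng5 was above background on 1 rotenone and 2 solvent arrays, with its highest value, 7.43, in solvent rat 11. The Gq-class genes Gna11 and Gna15 differed by 0.13 and -0.03, and Gna15 was above background on 2 arrays of each group. Gna12, Gnat3 and Gnb3 were below background on all 6 arrays.

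The RGS genes, which speed the return of alpha to its resting state, had 8 tested members with a median difference of 0.04. Rgs2 was at 10.13, 9.71 and 10.01 in rotenone rats 16, 13 and 9, against 9.80, 9.85 and 9.44 in solvent rats 11, 7 and 1, which gives a difference of 0.26 (interval -0.16 to 0.67). Rgs14 differed by 0.16 and Rgs7, which acts on Go, by -0.16. Without rotenone rat 16 the values were 0.16 for Rgs2, 0.06 for Rgs14 and 0.018 for Rgs7. Rgs9, a marker of striatal neurons, was below background on all 6 arrays. Of the other regulators only Nucb1, a calcium-binding protein that can bind alpha subunits, was tested, at -0.04.

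Among effectors, the 5 tested genes of adenylyl cyclase and protein kinase A had a median difference of -0.18. The cyclase genes Adcy4 and Adcy3 differed by -0.33 and -0.19, and the kinase's regulatory subunit gene Prkar1a by -0.18. Adcy4 was near background, and above it on 1 rotenone and 2 solvent arrays. The other tested genes of the list, the cyclase genes Adcy2 and Adcy5, had the opposite sign, each at 0.12, and were named after their values were seen. Adcy3 was at -0.0069 without solvent rat 7, the array of the other date, Prkar1a at -0.10 without rotenone rat 16, and Adcy4 at -0.55 without solvent rat 11. Plcb4, a phospholipase C driven by Gq, differed by 0.11 (0.21 without solvent rat 7) and the inositol trisphosphate receptor gene Itpr2 by 0.05. Itpr2 was above background on 2 rotenone arrays and 1 solvent array. Of the potassium channels opened by beta-gamma, Kcnj5 was tested and differed by 0.08 (interval -0.29 to 0.44; 0.012 without rotenone rat 16), and Kcnj6 and Kcnj9 were below background on all 6 arrays. The receptor kinase genes Grk2, Grk6 and Grk5, whose products switch receptors off, differed by -0.16, 0.11 and -0.11. With 1 rat left out, Grk2 ranged from -0.31 without rotenone rat 16 to -0.04 without rotenone rat 13, Grk6 from 0.0020 to 0.23, and Grk5 from -0.21 to -0.0068. Grk5 was above background on 1 rotenone and 2 solvent arrays.

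Of the receptors, 36 of 41 were on the array, 19 were tested and 13 were below background in every rat. Gabbr1, a subunit of the GABA-B receptor, had 6.40, 6.93 and 6.999 in rotenone rats 16, 13 and 9, against 7.02, 7.02 and 7.40 in solvent rats 11, 7 and 1. Its groups lay apart by a narrow margin, its difference was -0.38 (interval -0.84 to 0.08) with all rats and -0.19 when rotenone rat 16 was left out. The substance P receptor gene Tacr1 differed by 0.30 with all rats, by 0.10 without rotenone rat 16 and by 0.51 without rotenone rat 9 (unadjusted p 0.0349 in limma's fit across all probes).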

How the data were processed

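The deposited scanner files give, per spot, linear intensities of the spot and of its local background, and, per the file headers, a net intensity and the same value scaled within the array. Scanner software: not given in the sources used here. Scaled intensity also fills the deposited value table. Its column for solvent rat 7 equals the scanner file at 0.898% of probes and the other 5 columns at 100%, so the table served only as an alternative. The depth of an array has no count, and the number of arrays limits the precision.

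Probes were named through RefSeq accessions on GRCr8 (4675 of 33849). Background was corrected with normexp (offset 50), which draws differences towards 0. Without the 496 control spots, the log2 values then went through quantile normalization. Probes counted as above background where the scanner gave neither its low nor its masked mark, and those above it on 3 or more of the 6 arrays were tested with limma 3.58.1 (R 4.3.3), two-sided, every spot kept. The code was tested on simulated data. Named genes were all members, the tested other subunits, the 3 lowest p per pathway list, the 5 nearest to Gnb2 and 7 markers; some genes that this rule names are not reported here. Alternatives changed normalization, background, filter, marked spots, weights and rats. The members and lists were chosen with earlier results of these data known.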

Additional observations from a re-analysis of the deposited data

How the results depend on the processing

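No member probe and no pathway probe was called under any of the 16 alternatives, and over all probes 0 were called under 14 of them. With marked spots left out, 2 of 3910 probes were called, and without solvent rat 1, 3 were called, so that the count with a rat left out ranged from 0 to 3; none was a member. Of 129 member values under these alternatives, 107 kept their sign. Gnai2 had an unadjusted p of 0.0448 with the array medians equalised (-0.64) and of 0.049 with cyclic loess (-0.56), and with a rat left out it ranged from -0.73 to -0.34, at an unadjusted p of 0.0182 without rotenone rat 13 and 0.0153 without solvent rat 11. Gnb2 ranged from -1.20 to -0.06 and Gnas from -0.53 to -0.09 with a rat left out, each nearest to 0 without rotenone rat 16. The unadjusted p in limma was 0.0161 for Gnb2 without rotenone rat 13 and 0.0494 for Gnas without rotenone rat 9. Over all probes, 731 were lower and 601 higher at an unadjusted p below 0.05 without rotenone rat 13. The counts were 593 and 379 without rotenone rat 9, 324 and 223 without solvent rat 11, and 493 and 332 with all rats.

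Sign changes lay mostly near 0. With array medians equalised, Gnao1 was at -0.066 and -0.10 and Kcnj5 at -0.024, and with cyclic loess Gnao1 GE20502 was at -0.019. With marked spots left out, 3 member probes could be tested, and Gnai1 GE21759 was at -0.010 and Gng7 at -0.018. With array weights, Gnai1 GE21759 was at -0.015, Gnai3 at 0.0085, Rgs7 at 0.013, Nucb1 at 0.0013 and Grk5 at 0.0024. With the value table put right, Nucb1 was at 0.069. The value table as deposited, whose column for solvent rat 7 stands beside the wrong probes and whose median difference over all probes is 0.63, gave Gnai1 -0.27 and -0.23, Gnai2 1.49, Gnas 1.00, Gnb2 1.19, Gng7 -0.52, Gng8 1.38, Gna11 -0.13, Rgs14 -0.91, Rgs7 1.46, Prkar1a 1.06, Adcy3 1.68, Itpr2 -1.14, Kcnj5 -0.90, Gabbr1 0.35 and Tacr1 -0.78.

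With a rat left out, Gnao1 ranged from -0.15 to 0.20 and from -0.13 to 0.12, Gnai1 from -0.026 to 0.40 and from -0.012 to 0.092, Gnai3 from -0.088 to 0.0062, Gng7 from -0.0081 to 0.15, Gnaz from -0.33 to 0.092, Gna15 from -0.16 to 0.10, Rgs7 from -0.39 to 0.018, Nucb1 from -0.11 to 0.039 and Itpr2 from -0.011 to 0.069. Apart from the misplaced column, the causes were not tested. No paired analysis was possible because the groups share no replicate number, and the date in the file header could not be used as a block since 1 array alone has the other date. Gnaq had a value with no filter on dim probes, 0.26 (unadjusted p 0.0512 and adjusted p 0.937 in limma). In that setting Gnai2 had an unadjusted p of 0.0642.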

Other observations

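The receptors of the nigra as a list had higher means with rotenone for 14 of 19 tested genes, with a median difference of 0.13, against 51.7% of means higher and a median of 0.0089 over all tested probes. With the array medians equalised the count was 11 of 19, against 38.1% of all tested probes, and without rotenone rat 16 it was 10 of 19 with a median difference of 0.01. Their median deviation from the other 5 rats was 0.22 in rotenone rat 16 and between -0.08 and -0.01 in the other 5, and their summed scaled intensity was 519 in rotenone rat 16 and 234 and 283 in rotenone rats 13 and 9, against 236 to 282 with solvent. This sum follows the brightest receptors, and before scaling the array of rotenone rat 16 had the lowest median net intensity, 11.7 against 13.9 to 16.6. Drd2, the dopamine autoreceptor that acts through Gi/o and was singled out after its values were seen, had 11.70, 10.25 and 10.72 in rotenone rats 16, 13 and 9, against 10.22, 10.81 and 10.95 in solvent rats 11, 7 and 1. Gabbr2, the partner of Gabbr1 in the GABA-B receptor and likewise singled out, had 10.81, 10.25 and 10.47 in the rotenone rats, against 10.28, 10.09 and 10.54 in the solvent rats. Both were highest in rotenone rat 16, while Gabbr1, on the same list, was lowest there, at 6.40. Drd2 differed by 0.23 (interval -0.52 to 0.98) and Gabbr2 by 0.21 (interval -0.23 to 0.65), and neither passed the test (adjusted p 0.930 and 0.904 in limma).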
